A study of Arabidopsis thaliana with 42 samples.

Results

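NLP5 and NLP8 were compared directly with each other in 4 of the 42 libraries of the series, all from mesophyll protoplasts of Col-0 Arabidopsis thaliana in which an NLP was transiently expressed. The members were chosen from the counts and not from the titles. Among the libraries titled NLP5 or NLP8, those whose highest NLP transcript was NLP5 (2 libraries, called NLP5-holding here) were set against those whose highest was NLP8 (2 libraries, called NLP8-holding). The NLP5-holding libraries were labelled NLP5 replicate 1 and NLP8 replicate 2, and the NLP8-holding libraries were labelled NLP8 replicate 1 and NLP5 replicate 2, so that the titles went against the transcript in 1 library of each group. Wild-type plants of 3 to 4 weeks, grown in soil, gave the protoplasts of every group. The labels do not give the nitrate supply of the protoplasts, the promoter that drove the NLPs, the time of expression, or whether replicates were separate transfections. The p-values therefore measure only the spread between these libraries, which may be technical. The 2 libraries titled as controls for NLP1, 2, 3, 5, 8 and 9 entered no test. They differed from each other by no more than sampling noise (chi-square of 1.01 per gene over 16985 genes, the 9 NLP loci left out) and are given as 1 sample beside the genes named. Values of the 4 libraries are given in the order in which their labels stand above.

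NLPs (NIN-LIKE PROTEINs) are plant transcription factors with an RWP-RK DNA-binding domain. They carry the primary response to nitrate, in which genes for nitrate uptake, its reduction to ammonium, the reductant this takes and a layer of regulators are switched on within minutes. NLP7 is the best studied member, NLP8 is known for nitrate-promoted seed germination, in which the abscisic acid catabolic gene CYP707A2 is a target, and NLP5 is the closest relative of NLP4.

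The transcripts of NLP5 and NLP8 are the values that defined the groups and are given without a test. NLP5 (AT1G76350) stood at 65195.52 and 58390.77 CPM (counts-per-million) of the library total in the NLP5-holding libraries, against 47.02 and 434.44 CPM in the NLP8-holding libraries. NLP8 (AT2G43500) stood at 37.25 and 327.57 CPM in the NLP5-holding libraries, against 40622.44 and 41880.64 CPM in the NLP8-holding libraries. The controls held NLP5 at 15.53 and 56.14 CPM and NLP8 at 30.24 and 47.48 CPM. The library labelled NLP5 replicate 2 thus held some NLP5 above the control level and the library labelled NLP8 replicate 2 some NLP8, in each case under 1% of the level in the libraries that hold that NLP (0.703% for NLP5 and 0.794% for NLP8). Per kilobase of transcript, NLP5 stood at 21502 and 19258 CPM in its libraries and NLP8 at 10949 and 11289 CPM in its own. The NLPs were therefore not present at equal transcript levels, and a difference in amount cannot be told apart from a difference between the factors in any result below.

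**Figure D1:**
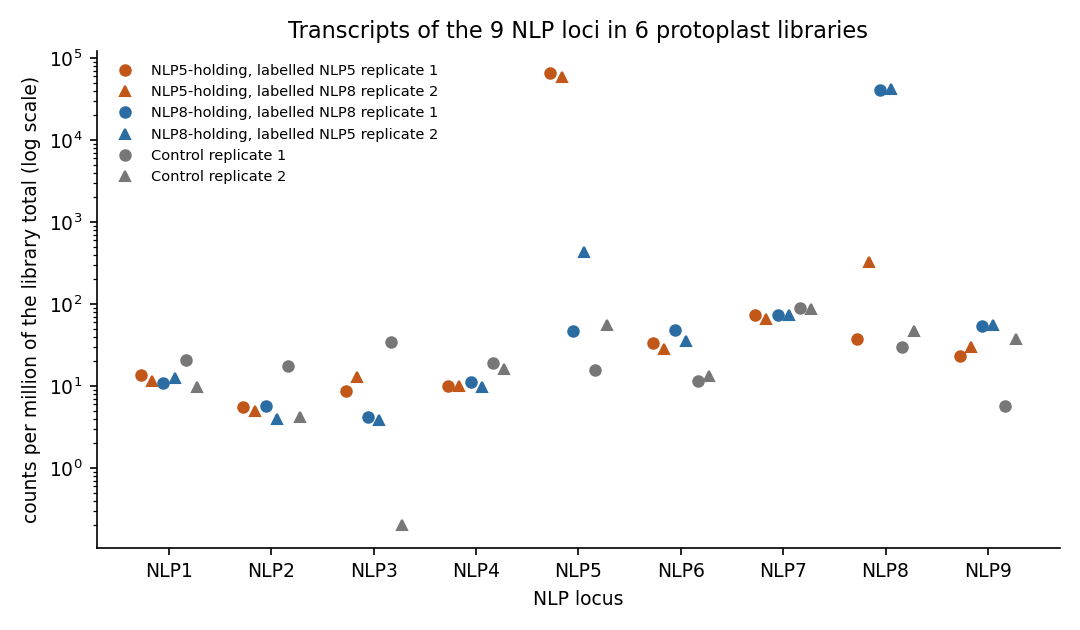
CPM of the library total for the 9 NLP loci (log scale), with 1 point per library: orange for NLP5-holding, blue for NLP8-holding and grey for the control libraries. NLP5 lies at 65195.52 and 58390.77 CPM in the NLP5-holding libraries and NLP8 at 40622.44 and 41880.64 CPM in the NLP8-holding libraries, and the highest of the other points is 434.44 CPM.

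Of the other 7 NLP genes, NLP3 was called higher and NLP9 lower, and the remaining 5 were not called. On the scale used from here on, CPM scaled by TMM over the 24 protoplast libraries, NLP3 had 8.71 and 13.2 CPM in NLP5-holding libraries, against 3.65 and 3.42 CPM in NLP8-holding libraries (log2 fold change 1.63 ± 0.20, SE; adjusted p = 1.32e-08). NLP9 had 23.40 and 29.64 CPM of the library total in NLP5-holding libraries, against 53.54 and 55.92 CPM of the library total in NLP8-holding libraries (log2 fold change -0.85 ± 0.10; adjusted p = 2.07e-09). Transcripts of NLP8 and NLP9 share a run of 34 identical bases and those of NLP5 and NLP4 one of 38, and the part of misassigned reads in the NLP9 value was not tested. NLP loci also differed between the control libraries, with 34.6 and 0.2 CPM of NLP3, 5.65 and 37.13 CPM of NLP9, 17.42 and 4.24 CPM of NLP2 and 20.48 and 9.85 CPM of NLP1 per library total, besides NLP5 as given above.

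The 4 libraries were well matched in depth but for 1. They held 13206889 and 27731436 counts in the NLP5-holding group, against 13206050 and 12250194 counts in the NLP8-holding group, and 21727 to 24173 loci had a count. Library pairs that held the same NLP differed by a chi-square of 3.58 (NLP5) and 3.01 (NLP8) per gene, and pairs that held different NLPs by 25.8 to 35, with the 9 NLP loci left out. Of 17218 loci tested, 3527 (20.5%) were called at an adjusted p under 0.05 with edgeR's quasi-likelihood test, 1950 higher (11.3%) and 1577 lower (9.16%) in NLP5-holding libraries. Differences of 2-fold or more were called for 360 loci higher (2.09%) and 603 lower (3.5%). The groups did not overlap at 9820 loci (57%).

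The calls in the 2 directions lay at different levels of expression. Among loci with a mean of 50 CPM or more, 907 were higher and 257 lower in NLP5-holding libraries, and at 2-fold or more 109 were higher and 14 lower. Among the 898 loci tested under 1 CPM, 23 were higher and 191 lower, all by 2-fold or more. The filter keeps a locus with enough counts in 2 libraries, so that such loci can pass through the group where they are high. The part of the filter in these low-level calls was not tested. The count of lower calls depended on method and library, with 687 by DESeq2 and 982 without the library labelled NLP8 replicate 2, against 1266 and 1559 higher. When only loci that reach 5 CPM were tested, 171 were called lower by 2-fold or more, against 603 above.

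**Figure D2:**
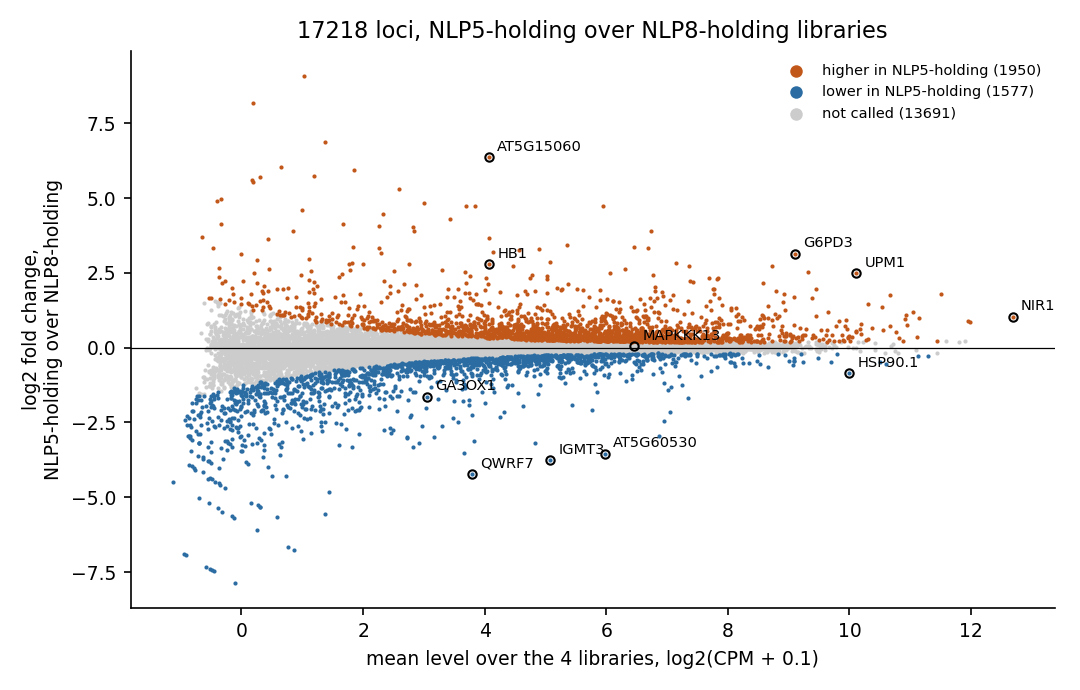
Log2 fold change of NLP5-holding over NLP8-holding libraries against the mean level over the 4 libraries, log2(CPM + 0.1), with 1 point per locus and the NLP5 and NLP8 loci left out. Orange points (1950) were called higher and blue points (1577) lower in NLP5-holding libraries; the blue points are most frequent at the left, where levels are low, and the orange points at the right, where G6PD3, UPM1 and NIR1 lie.

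The pathway from nitrate to amino acids was the most abundant group to differ, and every call in it was in the direction of NLP5. Of the 16 genes listed for reducing nitrate and assimilating ammonium, 11 were higher in NLP5-holding libraries, 0 were lower and 5 were not called. The median log2 fold change was 0.58, against -0.01 over all loci tested. Of all loci tested, 11.3% were higher and 9.16% lower, and the lists below are to be read beside the same shares. NIR1 (AT2G15620), the plastid nitrite reductase, reached 8704 and 9147 CPM in NLP5-holding libraries, against 4235 and 4243 CPM in NLP8-holding libraries and 577 CPM in the control. Its log2 fold change was 1.04 ± 0.10 (adjusted p = 1.56e-11). The groups lay far apart and each stood above the control.

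The largest difference in this list was in UPM1 (AT5G40850), the uroporphyrinogen methyltransferase that supplies the siroheme cofactor of nitrite reductase. UPM1 had 1865 and 1900 CPM in NLP5-holding libraries, against 302 and 346 CPM in NLP8-holding libraries and 139 CPM in the control (log2 fold change 2.50 ± 0.08; adjusted p = 2.17e-26). It is annotated to overlap AT5G40855 on the opposite strand, and the sources used here do not say whether reads were counted by strand. The nitrate reductases differed less than UPM1. NIA2, which carries most nitrate reductase activity, had 5105 and 5400 CPM in NLP5-holding libraries, against 2867 and 2833 CPM in NLP8-holding libraries and 3886 CPM in the control (log2 fold change 0.84 ± 0.09). NIA1 had 1321 and 1414 CPM in NLP5-holding libraries, against 978 and 982 CPM in NLP8-holding libraries (0.44 ± 0.07). The control thus lay between the groups for NIA2, and below both of them for NIA1, at 499 CPM.

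Ammonium assimilation followed the same direction in the genes that were called. GLN2, the plastid glutamine synthetase, had 505 and 533 CPM in NLP5-holding libraries, against 236 and 250 CPM in NLP8-holding libraries (log2 fold change 1.06 ± 0.07). GLT1, the NADH-dependent glutamate synthase, had 2237 and 2057 CPM in NLP5-holding libraries, against 836 and 787 CPM in NLP8-holding libraries (1.37 ± 0.08). GLU1, the ferredoxin-dependent one, had 391 and 368 CPM in NLP5-holding libraries, against 153 and 153 CPM in NLP8-holding libraries (1.27 ± 0.07). The asparagine synthetases ASN1 and ASN2 were also higher, by 1.37 ± 0.13 and 0.71 ± 0.07 on the log2 scale, and so were the cytosolic glutamine synthetases GLN1;1 (0.41 ± 0.07) and GLN1;2 (0.31 ± 0.07). GLN1;3, GLN1;4, GLU2 and the glutamate dehydrogenases GDH1 and GDH2 were not called, with log2 fold changes between -0.15 and 0.17.

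Reductant supply showed the largest share of calls of any list. These genes encode the oxidative pentose phosphate pathway, ferredoxin and the root-type ferredoxin reductases that pass electrons to nitrite reductase where photosynthesis does not. Of 10 genes, 8 were higher in NLP5-holding libraries, 0 were lower and 2 (G6PD1 and G6PD4) were not called, with a median log2 fold change of 1.08. G6PD3 (AT1G24280), a plastid glucose-6-phosphate dehydrogenase, had 953 and 1031 CPM in NLP5-holding libraries, against 107 and 112 CPM in NLP8-holding libraries and 3.88 CPM in the control. That is a 9.06-fold difference (log2 fold change 3.14 ± 0.08; adjusted p = 4.99e-30), and loci on the opposite strand overlap this gene. All 4 libraries stood far above the control.

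The other members of the list differed by less. RFNR2, a root-type ferredoxin-NADP reductase, had 702 and 769 CPM in NLP5-holding libraries, against 106 and 111 CPM in NLP8-holding libraries and 6.32 CPM in the control (log2 fold change 2.73 ± 0.07). RFNR1 had 4344 and 4702 CPM in NLP5-holding libraries, against 1261 and 1306 CPM in NLP8-holding libraries and 284 CPM in the control (1.78 ± 0.09). G6PD2, another plastid dehydrogenase, had 817 and 858 CPM in NLP5-holding libraries, against 247 and 255 CPM in NLP8-holding libraries (3.34-fold; adjusted p = 1.46e-22). The 6-phosphogluconate dehydrogenases PGD3, PGD1 and PGD2 were higher by 1.45 ± 0.08, 0.71 ± 0.07 and 0.44 ± 0.07. Ferredoxin FD3 had 1921 and 2264 CPM in NLP5-holding libraries, against 1389 and 1432 CPM in NLP8-holding libraries and 161 CPM in the control (0.53 ± 0.08). FD3 was thus close between the groups, and far above the control in each.

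Among nitrate transport genes, 7 of the 12 tested were higher in NLP5-holding libraries and 1 was lower, with a median log2 fold change of 0.50, and 7 further members had too few counts to be tested. NRT3.1, the partner protein that high-affinity NRT2 transporters need, had 657 and 746 CPM in NLP5-holding libraries, against 267 and 300 CPM in NLP8-holding libraries and 125 CPM in the control (log2 fold change 1.27 ± 0.07; adjusted p = 9.53e-18). NRT1.1, the dual-affinity transporter and receptor, had 508 and 529 CPM in NLP5-holding libraries, against 238 and 270 CPM in NLP8-holding libraries and 406 CPM in the control (0.99 ± 0.07). NRT1.7, a phloem loading transporter, had 469 and 514 CPM in NLP5-holding libraries, against 240 and 249 CPM in NLP8-holding libraries and 437 CPM in the control (0.97 ± 0.07). For NRT1.1 and NRT1.7 the NLP8-holding libraries were the low ones, below the control.

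The vacuolar nitrate exchanger CLC-A was higher by 0.76 ± 0.11 and the low-affinity transporter NRT1.2 by 0.58 ± 0.12 on the log2 scale. NRT2.1, the main high-affinity root transporter, had 17.9 and 18.6 CPM in NLP5-holding libraries, against 20.2 and 21.9 CPM in NLP8-holding libraries, with 0 counts in the control, and was not called (-0.24 ± 0.11; adjusted p = 0.134). The xylem loading transporter NRT1.5 was lower, with 2.21 and 1.82 CPM in NLP5-holding libraries, against 5.38 and 3.79 CPM in NLP8-holding libraries (-1.26 ± 0.27; adjusted p = 0.000477). The calls of NRT2.6 (1.57 ± 0.44) and the seed vacuolar transporter NRT2.7 (0.33 ± 0.10) ended when single libraries were left out. The adjusted p of NRT2.6 was 0.0727 without the library labelled NLP5 replicate 1, 0.0753 without NLP8 replicate 2 and 0.106 without NLP5 replicate 2. That of NRT2.7 was 0.155 without NLP8 replicate 2 and 0.209 without NLP8 replicate 1. DESeq2 called neither (adjusted p = 0.159 and 0.155).

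Nitrate regulators split, with 14 of 23 higher in NLP5-holding libraries, 1 lower and 8 not called (median log2 fold change 0.63). The LBD37, LBD38 and LBD39 repressors, LOB-domain proteins that hold back nitrogen-responsive genes, did not move together. LBD37 had 334 and 356 CPM in NLP5-holding libraries, against 83.8 and 88.4 CPM in NLP8-holding libraries (log2 fold change 1.96 ± 0.07), and LBD39 had 51 and 57.3 CPM in NLP5-holding libraries, against 9.83 and 11.6 CPM in NLP8-holding libraries (2.31 ± 0.11). LBD38 had 54.9 and 69.7 CPM in NLP5-holding libraries, against 84.2 and 87 CPM in NLP8-holding libraries and 13.5 CPM in the control (-0.48 ± 0.08; adjusted p = 1.44e-05). The NLP8-holding libraries were therefore the higher ones for LBD38. The groups did not overlap for any of the 3, as at 57% of all loci tested.

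BT1 and BT2, BTB-TAZ proteins that restrain nitrate uptake genes, were higher by 2.24 ± 0.08 and 1.57 ± 0.07. BT2 had 245 and 243 CPM in NLP5-holding libraries, against 81.5 and 78 CPM in NLP8-holding libraries and 181 CPM in the control, so the NLP8-holding libraries lay below the control. The GARP repressors HHO2 and HHO3 were higher by 0.83 ± 0.09 and 0.77 ± 0.07, and the bZIP factors TGA1 and TGA4 by 0.85 ± 0.08 and 1.13 ± 0.08. The kinase genes MAPKKK13 and MAPKKK14 stood far above the control in every one of the 4 libraries and were not called. MAPKKK13 had 84 and 97.2 CPM in NLP5-holding libraries, against 85.4 and 84.8 CPM in NLP8-holding libraries and 6.3 CPM in the control (0.06 ± 0.08; adjusted p = 0.65).

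**Figure D3:**
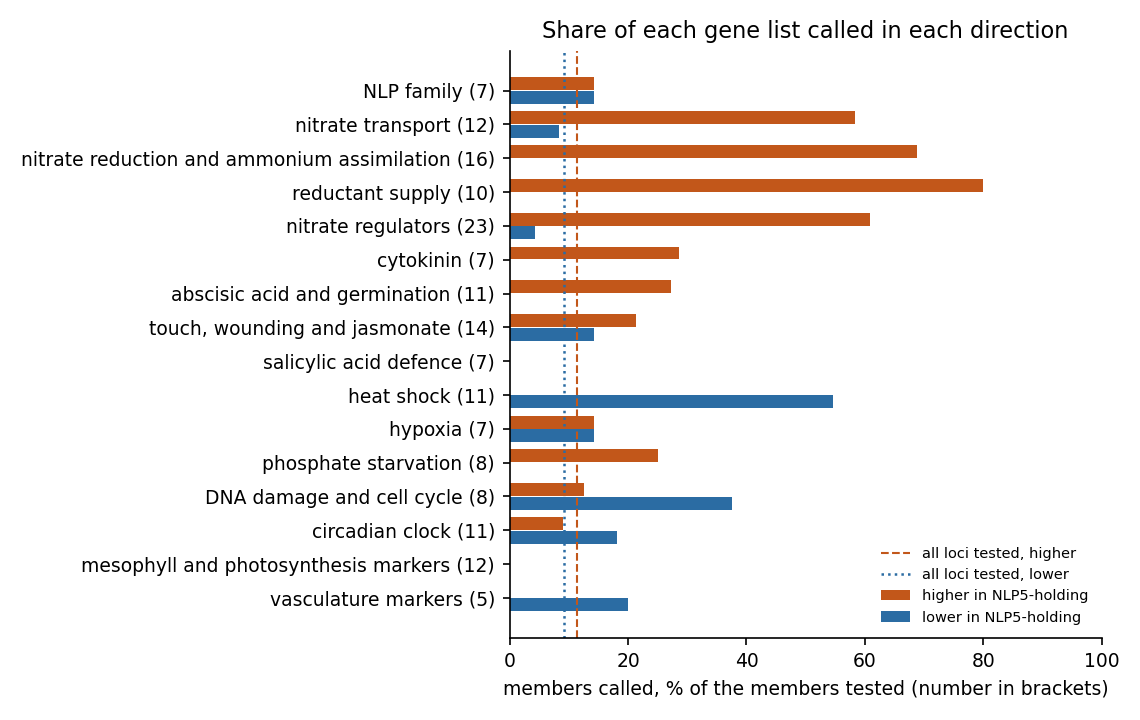
Share of the tested members of each gene list (number in brackets, lists with at least 5 tested) called higher (orange) or lower (blue) in NLP5-holding libraries, with dashed and dotted lines at the shares over all loci tested (11.3% and 9.16%). The 4 nitrogen lists carry the longest orange bars, heat shock carries the longest blue bar, and the mesophyll markers carry none.

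Outside these lists, the 12 loci with the highest log2 fold change among those of at least 5 CPM included transcription factor genes and uncharacterised loci, and the control held 0 to 1.37 CPM of each. AT5G15060 (chromosome 5, 4874332 to 4875949, minus strand, TAIR10.1), a LOB-domain family protein, had 31.6 and 34.3 CPM in NLP5-holding libraries, against 0.33 and 0.44 CPM in NLP8-holding libraries, with 0 counts in the control. Its log2 fold change was 6.37 ± 0.22 (adjusted p = 2.71e-25). The gene next to it, AT5G15070, lies 565 bases away on the opposite strand and was also higher, at 200.33 and 197.72 CPM in NLP5-holding libraries, against 13.09 and 13.11 CPM in NLP8-holding libraries. This neighbour was looked up after its values were seen.

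BAT1, an acyltransferase that inactivates brassinosteroids, had 5.8 and 8.03 CPM in NLP5-holding libraries, against 0.13 and 0.07 CPM in NLP8-holding libraries. Those of the NLP8-holding libraries rest on 3 counts in all, so that the ratio of summed counts of 70 has a 95% exact interval from 23.7 to 341 for counting error alone. HBI1, a bHLH factor that promotes growth, had 20 and 20.8 CPM in NLP5-holding libraries, against 0.86 and 1.17 CPM in NLP8-holding libraries (log2 fold change 4.29 ± 0.21). MYB28, a regulator of aliphatic glucosinolate synthesis, had 8.4 and 9.44 CPM in NLP5-holding libraries, against 0.60 and 0.44 CPM in NLP8-holding libraries (4.05 ± 0.30). MYB48 had 14.7 and 16.1 CPM in NLP5-holding libraries, against 0.53 and 0.51 CPM in NLP8-holding libraries (4.83 ± 0.25). In each of these genes the groups lay far apart, and the controls had 0.42 CPM of HBI1 and 0 counts of BAT1, MYB28 and MYB48.

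AT1G68238, an uncharacterised protein gene, was the most abundant of the 12, with 108 and 130 CPM in NLP5-holding libraries, against 4.05 and 4.81 CPM in NLP8-holding libraries. The remaining loci were AT5G07995, the amino acid transporter family gene AT3G54830, AT3G22550, the P-loop hydrolase family gene AT3G28510, AT1G13448 and the leucine-rich repeat kinase family gene AT5G49780, with log2 fold changes between 4.03 and 5.29. AT1G13448 overlaps AT1G13450 (GT-1) on the opposite strand, and AT5G49780 overlaps AT5G07465, so their counts are uncertain. AT1G68238 lies 28 bases from AT1G68240, on the opposite strand, which was also higher (log2 fold change 2.68). Its neighbour on the same strand, AT1G68230, 933 bases away, was higher too (1.98). The part of reads from neighbours in the AT1G68238 value was not tested. For 10 of the 12, the NLP5-holding mean was the highest among 7 groups of protoplasts (NLP1, NLP2, NLP3, NLP5, NLP7, NLP8 and NLP9), and for BAT1 and AT3G28510 the NLP2 group was higher, at 9.87 and 35.3 CPM. The libraries titled NLP4 and NLP6 were not among these groups. The 12 loci were chosen for higher levels in NLP5-holding than in NLP8-holding libraries, so that this rank is partly set by the choice.

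The upstream sequences of 4 loci are shown because NLPs bind the nitrate-responsive element, whose letters GACCCTT, and CTT and AAG spaced by 10 bases, were searched for on both strands from 250 bases before to 50 after the annotated gene start. GACCCTT occurred in 2 of the 12 named loci that were higher (AT3G22550 and AT5G07995) and in 0 of the 12 that were lower, against 1.26% of 17109 nuclear loci tested. Over larger sets the shares were closer to each other, at 3.11% of the loci called higher by 2-fold or more and 2.65% of those called lower by 2-fold or more. AT3G07350, lower in NLP5-holding libraries, also held it. CTT and AAG with 10 bases between them occurred in 9.23% of all loci, in 9.89% of the loci higher and in 10.1% of those lower by 2-fold or more. The joined pattern (GAC, any base, CTT, 10 bases, AAG) occurred in 0.134% of all loci and in 0 of either set of 12 named loci. Its share was 0% of the loci higher by 2-fold or more and 0.166% of those lower by 2-fold or more. Over all calls, 5 of 1905 loci called higher (0.262%) and 2 of 1576 called lower (0.127%) held it. Of 66 loci raised by nitrate in wild-type seedlings and called higher, 4 held GACCCTT (6.06%) and 1 the joined pattern (1.52%). CTT and AAG with 10 bases between them occurred in 7.58% of these 66. Raised loci called lower were not counted as a set. Each sequence gives the 250 bases before the gene start, from RefSeq's TAIR10.1, 5′ to 3′ on the strand of the gene, with the letters of GACCCTT (or its complement AAGGGTC) or of CTT and AAG in capitals.
AT3G22550 (chr3:7993589-7993838, minus strand): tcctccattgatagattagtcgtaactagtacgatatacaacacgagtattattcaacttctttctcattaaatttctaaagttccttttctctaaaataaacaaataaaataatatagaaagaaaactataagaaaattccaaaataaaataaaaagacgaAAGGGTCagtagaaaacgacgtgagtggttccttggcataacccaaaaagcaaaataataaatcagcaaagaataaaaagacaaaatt
AT5G07995 (chr5:21693074-21693323, minus strand): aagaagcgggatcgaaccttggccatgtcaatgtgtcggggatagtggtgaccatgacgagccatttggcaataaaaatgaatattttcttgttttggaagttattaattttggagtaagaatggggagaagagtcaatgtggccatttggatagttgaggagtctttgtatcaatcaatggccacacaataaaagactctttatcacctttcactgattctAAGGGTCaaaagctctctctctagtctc
AT3G07350 (chr3:2346936-2347185, plus strand): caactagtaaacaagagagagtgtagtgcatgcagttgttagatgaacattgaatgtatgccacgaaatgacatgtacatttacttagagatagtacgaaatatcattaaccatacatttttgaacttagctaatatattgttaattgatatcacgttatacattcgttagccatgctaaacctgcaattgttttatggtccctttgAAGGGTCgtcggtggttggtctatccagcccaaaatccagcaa
AT5G60530 (chr5:24335859-24336108, minus strand): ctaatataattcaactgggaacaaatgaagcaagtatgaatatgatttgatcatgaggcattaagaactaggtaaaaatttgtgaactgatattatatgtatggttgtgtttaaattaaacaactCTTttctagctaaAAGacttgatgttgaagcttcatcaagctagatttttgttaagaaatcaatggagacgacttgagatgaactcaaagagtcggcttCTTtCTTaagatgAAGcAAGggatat

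Counted from the gene start, AAGGGTC begins at position -88 in AT3G22550, at -28 in AT5G07995 and at -43 in AT3G07350. AT5G60530 holds 3 matches to CTT and AAG, 2 of which overlap. A match of letters is a description of the sequence and not a binding site.

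The 12 loci with the lowest log2 fold change were more abundant in NLP8-holding libraries, and for 11 of them the control lay nearer to the NLP5-holding libraries. AT5G60530 (chromosome 5, 24333907 to 24335858, minus strand), annotated as related to late embryogenesis abundant proteins, was the most abundant. It had 9.39 and 10.7 CPM in NLP5-holding libraries, against 113 and 118 CPM in NLP8-holding libraries and 0.31 CPM in the control (log2 fold change -3.54 ± 0.09; adjusted p = 4.06e-29). QWRF7, of a family named for a protein motif, had 1.3 and 1.52 CPM in NLP5-holding libraries, against 25.8 and 26.4 CPM in NLP8-holding libraries, with 0 counts in the control (-4.21 ± 0.17). The mitochondrial small heat shock gene HSP23.6-MITO, which lies 769 bases from QWRF7 on the opposite strand, was lower as well (-2.02 ± 0.18).

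IGMT3, of a cluster of indole glucosinolate methyltransferases, had 3.59 and 5.39 CPM in NLP5-holding libraries, against 64.8 and 60.7 CPM in NLP8-holding libraries (log2 fold change -3.76 ± 0.12). Its neighbours are close copies among which counting may split reads, and of them IGMT2 was lower (-1.54) and IGMT1 was not called (0.23). CYP90D1, a cytochrome P450 of brassinosteroid synthesis, had 0.99 and 1.49 CPM in NLP5-holding libraries, against 13.1 and 12.2 CPM in NLP8-holding libraries (-3.30 ± 0.22). Its control, at 4.5 CPM, lay above the NLP5-holding libraries and below the NLP8-holding ones. ABCG6, a transporter of suberin formation, had 0.15 and 0.19 CPM in NLP5-holding libraries, against 5.71 and 4.37 CPM in NLP8-holding libraries. Its NLP5-holding libraries held 2 and 5 counts, and the ratio of summed counts was 29-fold lower with an interval from 13.7 to 73.4.

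The others were the glutathione transferase gene GSTF14, the YABBY factor gene YAB5, the developmental regulator gene ULT1, AT4G00700, AT4G24970, the protein kinase gene AT5G65530 and the O-fucosyltransferase family gene AT1G14970, with log2 fold changes between -3.51 and -3.02. AT4G00700 overlaps AT4G00695 on the same strand. Among these 12, chosen for higher levels in NLP8-holding libraries, the NLP8-holding mean was the highest of the 7 protoplast groups for ABCG6 and AT1G14970. For the other 10 an NLP2, NLP7 or NLP9 group was higher, as for AT5G60530, with 116 CPM on average in NLP8-holding libraries, 277 CPM in NLP2 libraries and 294 CPM in NLP9 libraries.

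**Figure D4:**
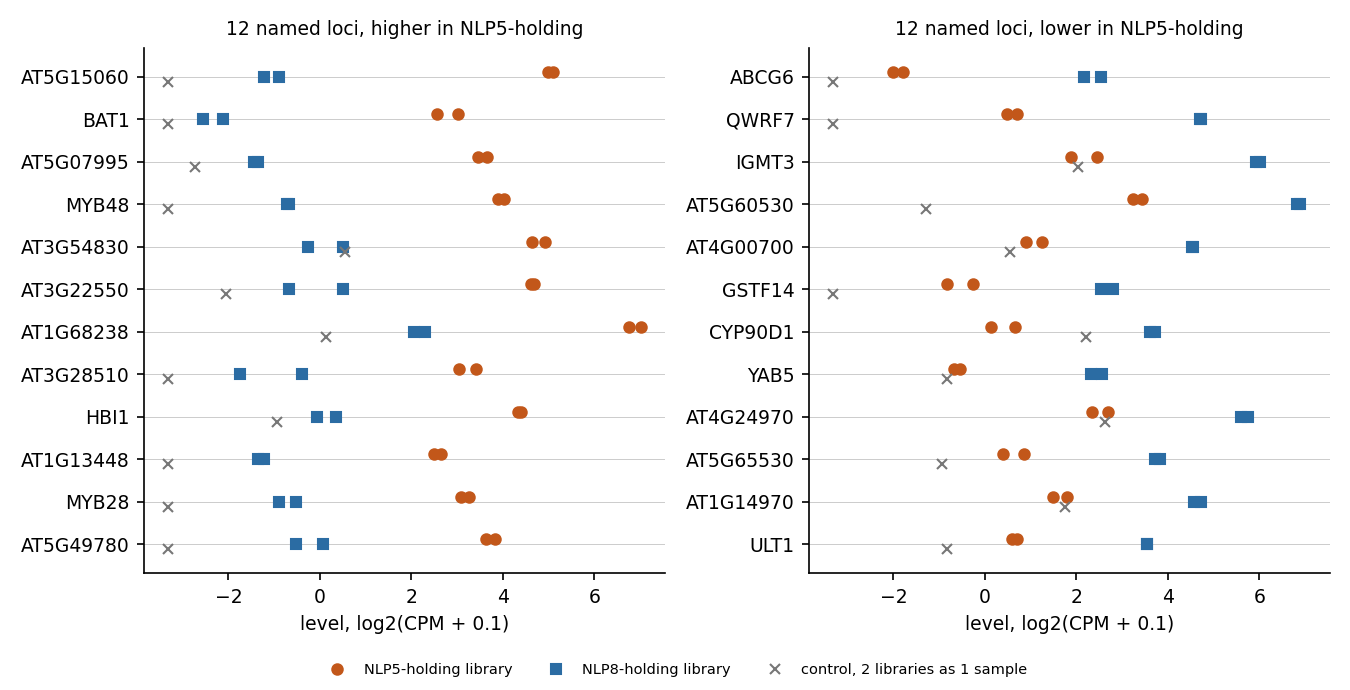
Level, log2(CPM + 0.1), of the 12 loci with the highest and the 12 with the lowest log2 fold change, with 1 orange circle per NLP5-holding library, 1 blue square per NLP8-holding library and a grey cross for the control. In the left panel the crosses lie at or near the blue squares or below them, and in the right panel at or near the orange circles or below them, except for CYP90D1.

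Hormone genes differed singly. CYP707A2, an abscisic acid 8′-hydroxylase, had 50.1 and 52.8 CPM in NLP5-holding libraries, against 27.3 and 27.5 CPM in NLP8-holding libraries and 0.09 CPM in the control (log2 fold change 0.88 ± 0.09; adjusted p = 1.15e-10). All 4 libraries thus held far more of it than the control, and the NLP5-holding ones the most. CYP707A3, another of these hydroxylases, had 18.8 and 18.5 CPM in NLP5-holding libraries, against 4.65 and 4.74 CPM in NLP8-holding libraries (1.95 ± 0.15). With the synthesis gene NCED3 (0.53 ± 0.14), 3 of 11 tested genes of the abscisic acid and germination list were higher and 0 lower, at a median of -0.14. The shares over all loci tested were 11.3% higher and 9.16% lower. The call of NCED3 ended without the library labelled NLP8 replicate 2 (adjusted p = 0.126) or NLP8 replicate 1 (adjusted p = 0.135), and by DESeq2 (adjusted p = 0.131).

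GA3OX1, which makes bioactive gibberellin, went the other way, with 2.9 and 4.87 CPM in NLP5-holding libraries, against 11 and 14.1 CPM in NLP8-holding libraries and 1.42 CPM in the control (-1.64 ± 0.19; adjusted p = 3.43e-09). It was the only called gene of 3 tested in the gibberellin list. Of 7 tested cytokinin response genes, ARR7 (1.07 ± 0.14) and ARR4 (0.35 ± 0.09) were higher and 0 lower, against 11.3% and 9.16% over all loci. The call of ARR4 ended without NLP8 replicate 2 (adjusted p = 0.1) or NLP8 replicate 1 (adjusted p = 0.179), and by DESeq2 (adjusted p = 0.0519).

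Heat shock genes had the most lower calls of any list, with 6 of 11 lower in NLP5-holding libraries, 0 higher and a median log2 fold change of -0.49. All loci tested gave 9.16% lower and 11.3% higher. The chaperone gene HSP90.1 had 745 and 733 CPM in NLP5-holding libraries, against 1238 and 1353 CPM in NLP8-holding libraries and 742 CPM in the control (-0.85 ± 0.07; adjusted p = 2.38e-12). HSP101, a disaggregase, had 448 and 433 CPM in NLP5-holding libraries, against 616 and 666 CPM in NLP8-holding libraries and 296 CPM in the control (-0.58 ± 0.07). HSP70 (-0.49 ± 0.08), the heat shock factor gene HSFA2 (-0.43 ± 0.07), HSP23.6-MITO and DREB2A (-0.23 ± 0.08) were the others. The call of DREB2A ended without NLP8 replicate 2 (adjusted p = 0.33) or NLP8 replicate 1 (adjusted p = 0.334), and by DESeq2 (adjusted p = 0.186).

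In the hypoxia, touch and clock lists, 5 of 7, 9 of 14 and 8 of 11 tested members were not called. The calls in each list went in both directions, to be read against the 11.3% higher and 9.16% lower over all loci. HB1, a class 1 hemoglobin that metabolises nitric oxide and is induced by low oxygen, had 30.2 and 28.6 CPM in NLP5-holding libraries, against 4.32 and 3.93 CPM in NLP8-holding libraries and 1.55 CPM in the control (log2 fold change 2.79 ± 0.14; adjusted p = 1.38e-19). It was the 1 higher member of 7 tested, HRE1 was the 1 lower (-0.87 ± 0.15), and the fermentation genes ADH1 (0.10 ± 0.10) and PDC1 (-0.07 ± 0.11) were not called. In the touch, wounding and jasmonate list the jasmonate synthesis genes AOS (0.75 ± 0.08) and LOX2 (0.42 ± 0.07) and the factor gene WRKY33 (0.45 ± 0.07) were higher, and TCH4 (-0.56 ± 0.10) and ZAT12 (-0.31 ± 0.07) were lower, of 14 tested. The call of ZAT12 ended without NLP5 replicate 2 (adjusted p = 0.0992) and with a spread pooled over 19 protoplast libraries (adjusted p = 0.138).

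In the circadian clock list PRR7 (-0.70 ± 0.09) and GI (-0.38 ± 0.09) were lower and LUX (0.27 ± 0.08) higher, of 11 tested, against the same 11.3% and 9.16% over all loci. The call of LUX ended without NLP8 replicate 2 (adjusted p = 0.0675) or NLP8 replicate 1 (adjusted p = 0.153), and by DESeq2 (adjusted p = 0.0564). Of 8 phosphate starvation genes, PHT1;4 (0.35 ± 0.08) and PHR1 (0.37 ± 0.07) were higher and 0 lower, beside the same shares over all loci. Of 7 salicylic acid defence genes 0 were called, with a median of 0.10. The gene RKD5, the 1 member tested of the RKD relatives of NLPs, was not called (0.46 ± 0.37).

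The DNA damage and cell cycle list lay above the control, with summed levels of 280 to 284 CPM in NLP5-holding libraries, against 216 to 218 CPM in NLP8-holding libraries and 40.8 CPM in the control. Much of these sums in the 4 libraries was 1 gene, PARP2. PARP2, a poly(ADP-ribose) polymerase, was higher, at 182 and 180 CPM in NLP5-holding libraries, against 108 and 112 CPM in NLP8-holding libraries (0.68 ± 0.07). BRCA1 (-0.72 ± 0.17), PARP1 (-0.29 ± 0.10) and SMR7 (-0.64 ± 0.22) were lower, of 8 tested. Over all loci, 11.3% were higher and 9.16% lower. PARP1 was not called without NLP5 replicate 1 (adjusted p = 0.372), NLP5 replicate 2 (adjusted p = 0.0883) or NLP8 replicate 1 (adjusted p = 0.171). SMR7 was not called without NLP5 replicate 1 (adjusted p = 0.171), NLP8 replicate 2 (adjusted p = 0.053), NLP5 replicate 2 (adjusted p = 0.147) or NLP8 replicate 1 (adjusted p = 0.0875). DESeq2 called none of BRCA1, PARP1 and SMR7 (adjusted p = 0.0815, 0.325 and 0.306).

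To set these differences beside the response to nitrate itself, the wild-type seedlings of the series were used. They were 7 days old, had grown on ammonium succinate as the nitrogen source, and received 10 mM KNO3 (3 libraries) or 10 mM KCl (3 libraries) for 20 min. The spread was estimated over 6 seedling groups, which included nlp2,4,5,6,7,8,9 and chl1-5 seedlings. In the wild-type seedlings 131 loci were raised by nitrate (0.617% of 21229 tested) and 23 lowered (0.108%). Of the 115 raised loci that were tested in protoplasts, 67 (58.3%) were higher and 15 (13%) lower in NLP5-holding libraries, against 11.3% and 9.16% of all loci, and their median log2 fold change was 0.54. They made up 3.44% of all higher calls. Choosing the raised loci without the library of wild-type KCl replicate 3 left 79 of them, of which 44 were higher and 13 lower. Of the 20 lowered loci tested, 4 were higher and 0 lower.

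The nitrate-raised loci were not a uniform group in protoplasts. Beside the genes above, TPPB, a trehalose-6-phosphate phosphatase gene, had 12.8 and 13.8 CPM in NLP5-holding libraries, against 0.73 and 1.02 CPM in NLP8-holding libraries (log2 fold change 3.89 ± 0.24). NAS1, which makes the metal chelator nicotianamine, had 268 and 308 CPM in NLP5-holding libraries, against 39.2 and 44.5 CPM in NLP8-holding libraries (2.75 ± 0.08). AT1G78050, annotated as the phosphoglycerate mutase gene PGM and overlapped by AT1G78060 on the opposite strand, had 1048 and 1135 CPM in NLP5-holding libraries, against 179 and 187 CPM in NLP8-holding libraries (2.54 ± 0.07), and BRXL4, of the BREVIS RADIX family, was higher by 2.29 ± 0.07. For all 4 the groups lay far apart.

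Some loci that nitrate raised in seedlings were the higher ones in NLP8-holding libraries. AT3G07350 had the largest seedling response of the raised loci tested (237 ± 41.2 CPM with KNO3 and 10.1 ± 0.721 CPM with KCl, SD, n = 3 each). In protoplasts it had 59 and 75.3 CPM in NLP5-holding libraries, against 112 and 116 CPM in NLP8-holding libraries and 5.44 CPM in the control (log2 fold change -0.79 ± 0.08; adjusted p = 2.15e-10). AT2G48080, annotated as a 2-oxoglutarate and iron dependent oxygenase, had 71.3 and 84.2 CPM in NLP5-holding libraries, against 204 and 178 CPM in NLP8-holding libraries and 0.54 CPM in the control (-1.33 ± 0.08). AT5G65980, of the auxin efflux carrier family, had 29.6 and 32.3 CPM in NLP5-holding libraries, against 89 and 78.6 CPM in NLP8-holding libraries and 1.04 CPM in the control (-1.47 ± 0.08). These 3 loci, unlike the assimilation genes, were higher where NLP8 was held. With GA3OX1 and the acyltransferase family gene AT2G39980 (-1.14 ± 0.16), AT2G48080 and AT5G65980 were the 4 raised loci lower by 2-fold or more.

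**Figure D5:**
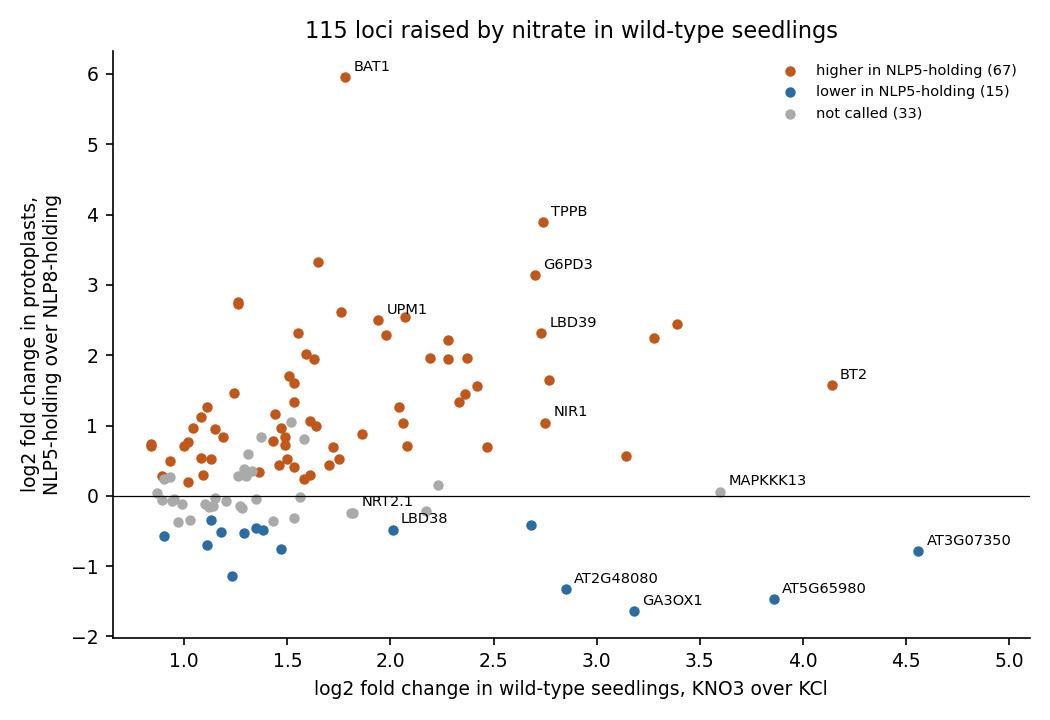
Log2 fold change in protoplasts, NLP5-holding over NLP8-holding libraries, against the log2 fold change in wild-type seedlings, KNO3 over KCl, for the 115 loci raised by nitrate in seedlings and tested in protoplasts. Orange points (67) were called higher, blue points (15) lower and grey points (33) were not called; AT3G07350, AT5G65980, GA3OX1 and AT2G48080 lie below the line at 0 at the right, and BAT1, TPPB and G6PD3 lie highest among the loci named.

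Among markers of leaf cell types 1 gene was called. Of 12 mesophyll and photosynthesis markers 0 were called, with a median log2 fold change of -0.05 and summed levels of 2945 to 3200 CPM in NLP5-holding libraries, against 2915 to 3202 CPM in NLP8-holding libraries and 2599 CPM in the control. Mesophyll markers were thus present in all 4 libraries, as labelled, but far below whole wild-type seedlings, which were scaled separately. RBCS1A, the Rubisco small subunit, averaged 843 CPM in NLP5-holding and 833 CPM in NLP8-holding libraries, against 27928 CPM in KNO3-treated and 18753 CPM in KCl-treated seedlings. Guard cell markers summed to 41.2 to 44.3 CPM in NLP5-holding libraries, against 35.9 to 39.8 CPM in NLP8-holding libraries, and 46.7 CPM in the control, with 0 of 3 tested called and 5 of the 8 too low to test. Epidermis markers summed to 3.38 to 3.51 CPM in NLP5-holding libraries, against 2.72 to 3.21 CPM in NLP8-holding libraries and 1.77 CPM in the control, with 0 of 1 tested called and 5 of the 6 too low to test. Vasculature markers summed to 12.2 to 13 CPM in NLP5-holding libraries, against 13.6 to 17 CPM in NLP8-holding libraries and 24.3 CPM in the control. Of 5 tested, the proton pump gene AHA3 was lower (-0.43 ± 0.15; adjusted p = 0.0405), a call that ended when any 1 of the 4 libraries was left out (adjusted p of 0.0516 to 0.316) and by DESeq2 (adjusted p = 0.377). The part of other cell types in the results above was not tested.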

How the data were processed

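Total RNA of 24 protoplast and 18 seedling libraries was sequenced, and each file holds raw read counts per locus for 37336 loci, deposited by the authors. The submitters' processing notes name FastQC 0.11.5, TopHat2 2.1.1, HTSeq 0.6.1, featureCounts and the TAIR10 build, and do not say whether counting used strand. The 5 total lines of each file were left out, and 37051 loci were paired with names in RefSeq's TAIR10.1 by locus identifier. The 4 libraries were grouped by which NLP locus had the highest CPM. Because 1 library of each title held the other NLP, the grouping as titled is an alternative. Counts were tested with edgeR 4.0.16 (R 4.3.3): filterByExpr, TMM factors of 0.942 to 1.068 and quasi-likelihood F tests on 2 residual degrees of freedom. The test adds 37.3 prior degrees of freedom taken from the spread of all loci, so that the p-values rest largely on this shared spread. Benjamini-Hochberg adjustment ran over 17220 loci. NLP5 and NLP8 were then left out of the calls, which left 17218 loci. The common biological coefficient of variation was 0.056. The ± after a log2 fold change is an SE worked back from the test, as the absolute log2 fold change over the square root of the F statistic. On simulated data the test recovered 77 of 100 loci changed 1.5-fold and 94 of 100 changed 2-fold, with 10 false calls. The simulation gave every locus the same spread, changed only those loci and drew the libraries independently. It therefore does not give the error rates in these data. Depth was 12250194 to 27731436 counts, so that 3 counts correspond to 0.108 to 0.245 CPM, and intervals cover counting error only. The loci named are the 12 with the highest and the 12 with the lowest log2 fold change among called loci whose groups did not overlap and whose mean reached 5 CPM in at least 1 group, beside the list members. The members, lists and motifs were chosen with earlier results of these data known. Wild-type seedlings were fitted with the other 4 seedling groups, which were nlp2,4,5,6,7,8,9 and chl1-5 seedlings, each with KNO3 or KCl. That comparison was added after seeing the data. Alternatives were RLE factors, totals without NLP or organellar loci, other filters, a replicate block, each library left out, a pooled spread and DESeq2 1.42.0.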

Additional observations from a re-analysis of the deposited data

Results flagged for a closer look

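Each library whose title went against its transcript held a trace of the NLP that it is titled for. NLP5 stood at 434.44 CPM of the library total in the NLP8-holding library labelled NLP5 replicate 2, above the 15.53 and 56.14 CPM of the control libraries. NLP8 stood at 327.57 CPM in the NLP5-holding library labelled NLP8 replicate 2, above the 30.24 and 47.48 CPM of the control libraries. The source of these reads was not tested.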

How the results depend on the processing

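The main counts stayed within 1.5 times of their value under RLE factors, totals without NLP or organellar loci, no filter and a pooled spread. DESeq2 called 1953 loci, 1266 higher and 687 lower, with 359 lower by 2-fold or more, and edgeR with a 5 CPM filter called 171 lower by 2-fold or more. Leaving out each library in turn gave 2504 to 2845 calls, with 1446 to 1611 higher, 982 to 1234 lower, 344 to 395 higher by 2-fold or more and 425 to 580 lower by 2-fold or more. In these fits the lone library of a group is assumed to vary like the pair of the other. List members numbered 48 to 54 higher and 15 to 17 lower. Of the nitrate-raised loci, 44 to 77 were higher and 11 to 22 lower over libraries left out in either experiment. Leaving out a seedling library changes which loci are chosen, so that 70 to 168 were tested: 44 of 79 were higher without Wild type K replicate 3, 47 of 70 without Wild type N replicate 2 and 77 of 168 without Wild type K replicate 2. A pooled spread ended the calls of NRT2.7, DREB2A, PARP1, ZAT12 and AHA3, and no filter that of PARP1 (adjusted p = 0.0618). Replicate numbers do not pair the libraries (correlation of deviations 0.01), and a replicate block gave 3866 calls, 3480 of them shared with the fit without it. Grouped as titled, each group holds 1 library of each NLP, and 0 loci, 0 list members and 0 nitrate-raised loci were called in either direction with edgeR's test, by 2-fold or more included, with 36 loci at an unadjusted p under 0.05. By that grouping's own construction the difference cancels, and 53 of 102 named genes changed sign, with log2 fold changes of AT5G15060 -0.12, BAT1 -0.50, MYB48 -0.15, AT3G54830 -0.27, AT3G22550 -0.03, AT1G68238 -0.23, AT3G28510 -0.33, HBI1 -0.05, MYB28 -0.21, QWRF7 0.05, AT5G60530 0.05, AT4G00700 0.01, ULT1 0.06, NLP3 -0.48, NRT1.7 -0.05, NRT3.1 -0.06, NRT2.6 -0.04, NIA1 -0.04, NIA2 -0.04, NIR1 -0.03, GLN2 -0.01, ASN2 -0.08, GLN1;1 -0.03, G6PD2 -0.03, G6PD3 -0.07, PGD1 -0.12, PGD3 -0.09, FD3 -0.11, RFNR1 -0.06, RFNR2 -0.08, LBD37 -0.04, LBD39 -0.10, HHO3 -0.15, TGA4 -0.05, CYP707A2 -0.04, GA3OX1 0.14, HRE1 0.22, HSP101 0.10, HSP70 0.13, HSP90.1 0.10, HSP23.6-MITO 0.09, HSFA2 0.05, DREB2A 0.01, GI 0.03, BRCA1 0.06, AOS -0.02, ZAT12 0.10, AHA3 0.17, TPPB -0.10, NAS1 -0.13, PGM -0.07, BRXL4 -0.07 and PHT1;4 -0.11.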
